A study of Mus musculus with 8 samples.

Results

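The cytosolic ribosomal protein genes are described here in inguinal white adipose tissue (ING WAT) of C57BL/6j mice, at weaning on postnatal day 21 (PN21) and in young adulthood on postnatal day 98 (PN98). Members were taken by symbol, as the *Rpl* and *Rps* genes with a number, the stalk genes *Rplp0*, *Rplp1* and *Rplp2*, and *Rpsa*; ribosomal protein kinases and genes named as pseudogenes were left out. This gave 88 of the 37170 genes in the deposited table. By symbol, 31 of these are small subunit genes, 42 large subunit genes and 3 stalk genes, 8 are paralogues of another member, and 4 further members (*Rps12l1*, *Rps12l2*, *Rps3a2* and *Rps3a3*) are annotated by GENCODE vM21 as pseudogene types although their symbols match the rule. The gene identifier under the symbol *Rpl24* (chr16:55973883-56008913) is named *Zbtb11* by vM21, and 0.67% of its FPKM came from protein-coding transcripts. It is kept among the 42 and in the counts and sums below. The start site read for *Rpl24* below (chr16:55966265-55966294) lies outside this interval, so its level and its start come from different loci. The mean level of 586 FPKM is that of the transcripts assigned to this identifier, and whether it reflects *Rpl24* was not tested.

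Poly(A)+ RNA was sequenced from 8 mice, of which m1, m49, m138 with m145 had been killed at PN21 and m35, m106, m114 with m125 at PN98. The labels name the strain with no allele and no agent, and each library is 1 mouse. They give neither the sex nor the diet of a sequenced mouse. The Y-linked genes *Ddx3y* and *Eif2s3y* stood at 18.1 to 25.9 and 38.9 to 84.5 FPKM in the 8 mice, and *Xist*, transcribed from the inactive X of females, at 0 to 0.832 FPKM, so that both ages had the levels of males. In the study's methods, mice kept to PN98 received a control diet (AIN93-M) or a western style diet (WSD), so diet cannot be told apart from age here. In whole tissue, fewer cells of a type and less RNA per cell cannot be told apart either.

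A cytosolic ribosome consists of a small subunit that reads the mRNA and a large subunit that joins the amino acids, and each subunit is built from ribosomal RNA and 1 copy of most of its proteins. The proteins are encoded by single functional genes scattered over the chromosomes, and their mRNAs are among the most abundant of most cells. These mRNAs start with a C followed by a run of pyrimidines, the terminal oligopyrimidine (TOP) tract, through which their translation is controlled together by nutrient and growth signals. Their mRNAs have also given rise to many processed copies in the mouse genome.

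The level of a gene is given in FPKM, fragments scaled to the length of the transcript and to the mapped fragments of the library, and summed over the gene's own transcripts. The values come without read counts, so the depth behind them is unknown. The adipocyte markers *Adipoq*, *Plin1*, *Fabp4* and others, 10 in all, summed to 15685 to 31523 FPKM at PN21 and 38777 to 59099 FPKM at PN98, so the labelled tissue had its markers in every mouse. Summed FPKM of all nuclear genes lay between 803473 and 1180740 per mouse, and scaling to it, or by the median of ratios, moved the median log2 fold change of all genes from −0.21 to 0.01 and −0.02, respectively.

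Of the 88 members, 87 had a mean of at least 1 FPKM over the 8 mice and were tested, and *Rpl10l*, a testis paralogue of *Rpl10*, was listed at 0 in every mouse. Mean levels of the tested members ranged from 1.63 to 1301 FPKM, and 75 had a mean of at least 100 FPKM. Summed over the members, the level was 30479, 36275, 36234 and 61410 FPKM in m1, m49, m138 and m145 at PN21, and 38986, 17420, 21528 and 18534 FPKM in m35, m106, m114 and m125 at PN98. The mice are listed in this order throughout. As a share of all nuclear FPKM this was 3.37%, 3.31%, 3.85% and 5.20% at PN21 (3.93% ± 0.881, SD, n = 4) and 3.99%, 2.13%, 2.59% and 2.31% at PN98 (2.75% ± 0.847, SD, n = 4). The ages overlapped through 1 mouse, since m35 lay above 3 of the 4 PN21 mice while the other PN98 mice lay below all of them.

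The start of the mRNA was read from the RefSeq promoter windows on GRCm38.p6, which held 63 of the 88 members. A C followed by at least 4 pyrimidines (C or T) stood exactly at the annotated start, on the strand of the gene, in 13 of these 63 members (20.6%) and in 813 of 27025 genes with a window (3.01%). With the tract allowed to begin within 10 bases of the annotated start, the counts were 39 of 63 (61.9%) and 9007 of 27025 (33.3%), so that both shares were higher when more positions were searched. None of the 7 paralogues with a window had the tract exactly at an annotated start, and 5 had it within 10 bases. The sequences below show members of both subunits and the stalk with the tract, and *Rps27* beside its paralogue *Rps27l*, whose levels are compared further on. Each run is 30 bases with the annotated start as base 11, and capitals mark the tract.
Rps15a, chr7:118116128-118116157, minus strand: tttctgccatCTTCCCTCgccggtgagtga
Rps18, chr17:33955646-33955675, minus strand: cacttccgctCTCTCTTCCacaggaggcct
Rpl28, chr7:4792955-4792984, plus strand: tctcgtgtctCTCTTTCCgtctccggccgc
Rplp2, chr7:141447641-141447670, plus strand: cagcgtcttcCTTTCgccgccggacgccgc
Rps27, chr3:90213629-90213658, minus strand: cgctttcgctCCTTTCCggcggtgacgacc
Rps27l, chr9:66946076-66946105, plus strand: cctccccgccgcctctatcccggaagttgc
The first 5 start with tracts of 8, 9, 8, 5 and 7 bases. The *Rps27l* run has none exactly at its annotated start, but a C followed by 4 pyrimidines (CCTCT, not in capitals) begins at the next base.

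The question put to each member was whether its level differed between PN21 and PN98. Of the 87 tested members, 86 had a lower mean on the log2 scale at PN98 (98.9%, against 67.1% of all 15789 genes tested), yet 0 members passed an adjusted p of 0.05 by limma over all genes, where 5.55% of all genes passed. The median log2 fold change (PN98 minus PN21) of the members was −0.79, against −0.21 for all genes. An unadjusted p under 0.05 with a lower level at PN98 was found for 54 members (62.1%, against 19.4% of all genes), and the lowest adjusted p was 0.0519, for *Rps2*. The 4 PN98 mice lay below all 4 PN21 mice in 7 members (8.05%, against 10.1% of all genes), among them *Rps2*, *Rpl18*, *Rpl28*, *Rpl7a*, *Rpl36al* and *Rpl7l1*. After scaling to nuclear genes, 85 members had a lower mean, 0 passed by limma (5.40% of all genes), 24 were lower with an unadjusted p under 0.05 (9.38% of all genes) and the median was −0.52. After median of ratios scaling these values were 86, 0 (7.83%), 23 (11.8%) and −0.55.

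The spread among PN98 mice was dominated by m35. Relative to the mean of the PN21 mice, the median member stood at −0.0046 in m35 on the log2 scale, against −1.20 in m106, −0.86 in m114 and −1.05 in m125. In m35, 76 of the 87 members lay within the range of the PN21 mice, 8 below and 3 above it, whereas 83, 82 and 83 members lay below that range in m106, m114 and m125. Mouse m35 was the highest of the PN98 mice in 80 members (92.0%, against 51.4% of all genes). Among PN21 mice, m145 stood at 0.56 and was the highest of all 8 mice in 81 members, and m1 stood at −0.37. This count and those against the PN21 range are given without a share of all genes, so how far they are particular to the members is not shown.

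**Figure D1:**
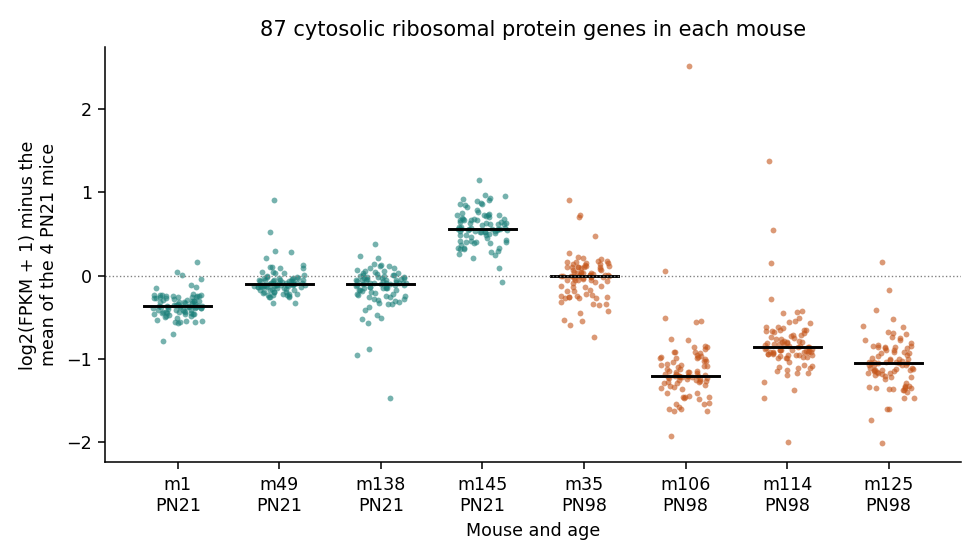
Level of 87 tested ribosomal protein genes in each mouse, as log2(FPKM + 1) minus the mean of the 4 PN21 mice for the same gene; each point is 1 gene, black lines are medians, and the 8 mice are grouped by age. The genes of 1 mouse shift together, with medians of −0.0046 in m35, 0.56 in m145 and −1.20 to −0.86 in the other PN98 mice.

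Each mouse was left out in turn. Without m35, 62 members were lower at PN98 with an adjusted p under 0.05 (71.3%, against 18.4% of all genes; 0 higher), the median log2 fold change was −1.02, and all remaining PN98 mice lay below all PN21 mice in 81 members (93.1%, against 29.8% of all genes). Their mean was then a median of 0.473 times the PN21 mean, whereas the level of m35 was a median of 0.963 times that mean. The 6 members with overlapping ages in these 7 mice included *Rpl3l*, *Rpl39l*, *Rps27l*, *Rps4y2* and *Rpl13a*. Without m35 and with scaling to nuclear genes, 22 members were called lower (25.3%, against 7.34% of all genes), and with median of ratios scaling 15 (17.2%, against 9.89%). Leaving out any other single mouse gave 0 called members, and fewer of all genes were called than with all 8 mice. These were 2.19%, 2.32%, 1.89% and 2.38% of all genes without m1, m49, m138 or m145, and 1.38%, 1.91% and 3.90% without m106, m114 or m125. The median of the members then lay between −0.90 and −0.59, the latter without m145. With all 8 mice weighted by limma's arrayWeights, 73 members were called lower and 1 higher, against 22.3% and 7.32% of all genes. Nothing in the labels sets m35 apart from the other PN98 mice.

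Markers of other cells varied with the members in m35. The 14 lymphocyte markers (T and B cell genes such as *Cd3g* and *Cd79a*) summed to 520 to 1285 FPKM at PN21, to 1127 FPKM in m35 and to as little as 22.3 FPKM in another PN98 mouse; none was at 0 in all mice of an age. Their mean log2(FPKM + 1) was 4.81, 5.23, 6.11 and 5.38 at PN21 and 5.89, 3.65, 2.08 and 1.17 at PN98. Of the 14 markers, 0 passed an adjusted p of 0.05 by limma over 8 mice, against 5.55% of all genes. With an unadjusted p under 0.05, 6 were lower, against 19.4% of all genes. Without m35, 14 were called lower, against 18.4% of all genes. Among m106, m114 and m125 the order of the lymphocyte score was not that of the member score, which was 7.02, 7.33 and 7.09. Of the 12 proliferation genes, 11 fell at PN98 with all 8 mice, against 3.10% of all genes. The 12 genes scored 2.02 in m35, 3.02 to 3.73 at PN21 and 0.71 to 1.53 in the other PN98 mice. Mouse m35 also had the highest mean log2(FPKM + 1) of all 8 mice in the 8 macrophage markers (6.16, against 4.78 to 6.11) and the 6 endothelial markers (5.33, against 3.65 to 5.15). It had the lowest in the 7 brown adipocyte markers (3.61, against 4.72 to 6.38), and in these 3 lists 0 markers passed by limma over 8 mice. All 3 erythroid markers fell at PN98, with a mean of 8.95 to 10.03 at PN21 and 7.505 to 8.36 at PN98, where m35 stood at 8.24. The 5 tested epithelial markers, of which *Epcam* alone passed as lower, had a mean of 0.58 to 2.36 at PN21 and 0.20 to 0.38 at PN98. The part of these cells in the member values was not tested.

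**Figure D2:**
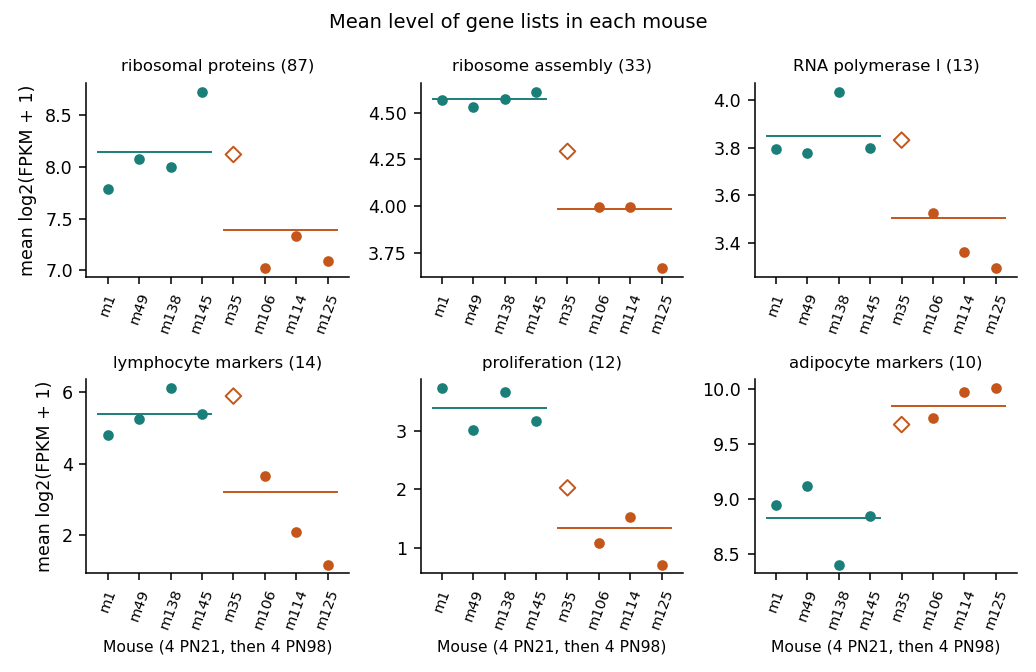
Mean log2(FPKM + 1) of 6 gene lists in each of 8 mice, with horizontal lines at the mean of each age and an open diamond for m35 (number of genes in parentheses). Ribosomal protein genes and lymphocyte markers of m35 lie within the PN21 range, at 8.12 and 5.89, whereas its adipocyte markers (9.68) lie with the other PN98 mice. Its RNA polymerase I genes (3.83) and, not drawn, the mean of all tested genes (3.81) also lie within the PN21 range.

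The small subunit proteins line the mRNA channel and the decoding site. All 31 genes had a lower mean at PN98, against 67.1% of all genes. Their log2 fold changes ran from −1.25 to −0.52 with a median of −0.81, and 20 had an unadjusted p under 0.05. Of all genes, 19.4% were lower with such a p. *Rps26* (chr10:128624534-128626747), whose protein contacts the mRNA where it leaves the ribosome, had the lowest log2 fold change of all members. It stood at 490, 563, 558 and 1032 FPKM at PN21 and at 498, 204, 260 and 189 FPKM at PN98. Mouse m35 lay just above the lowest PN21 mouse and the other PN98 mice far below it, and the log2 fold change was −1.25 (SE 0.36, adjusted p = 0.083).

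*Rpsa* (chr9:120127689-120132369), a small subunit protein also described as a laminin receptor, stood at 153, 184, 188 and 294 FPKM at PN21 and at 165, 68.2, 87.8 and 76.7 FPKM at PN98. Only m35 reached the PN21 range, and the log2 fold change was −1.08 (SE 0.32, adjusted p = 0.085). *Rps2* (chr17:24718116-24721929), chosen for mention after its adjusted p was seen, stood at 301, 283, 301 and 478 FPKM at PN21 and at 228, 137, 175 and 152 FPKM at PN98. Here m35 lay below every PN21 mouse, and the log2 fold change was −0.97 (SE 0.23, adjusted p = 0.0519, 0.016 without m35).

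The most abundant member was *Rps9*, a small subunit protein at the mRNA entry site, with 1185, 1306, 1451 and 2579 FPKM at PN21 and 1562, 679, 900 and 749 FPKM at PN98. Its log2 fold change of −0.75 (SE 0.33, adjusted p = 0.18) lay near the member median. *Rps15* and *Rps14*, also of the small subunit and among the 5 most abundant, had means of 1427 ± 502 and 1364 ± 422 FPKM at PN21 and 887 ± 346 and 875 ± 345 FPKM at PN98 (SD, n = 4). Their log2 fold changes were −0.70 (SE 0.31) and −0.66 (SE 0.30), with adjusted p of 0.18 and 0.19. In both genes m35 lay above 3 of the 4 PN21 mice.

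The large subunit proteins surround the catalytic centre and the exit tunnel of the growing chain. All 42 genes, the identifier under *Rpl24* included, had a lower mean at PN98, against 67.1% of all genes. Their log2 fold changes ran from −1.09 to −0.36 with a median of −0.78, and 28 had an unadjusted p under 0.05. Of all genes, 19.4% were lower with such a p. *Rpl10a*, the protein of the mobile stalk beside the exit site, stood at 232, 261, 262 and 449 FPKM at PN21 and at 245, 103, 131 and 104 FPKM at PN98. *Rpl12*, at the base of the factor-binding stalk, stood at 182, 204, 242 and 300 FPKM at PN21 and at 258, 94.3, 87.3 and 74.1 FPKM at PN98. The log2 fold changes were −1.09 (SE 0.33, adjusted p = 0.091) and −1.02 (SE 0.39, adjusted p = 0.15), and in *Rpl12* m35 lay above 3 of the PN21 mice. *Rpl41*, which encodes the smallest ribosomal protein, stood at 1412, 1328, 1123 and 2862 FPKM at PN21 and at 1227, 564, 986 and 754 FPKM at PN98 (log2 fold change −0.89, SE 0.35, adjusted p = 0.15).

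At the other end of the large subunit genes stood *Rpl30* and *Rpl10*. *Rpl30*, a protein that binds kinked RNA helices, had 230, 274, 312 and 410 FPKM at PN21 and 417, 166, 222 and 194 FPKM at PN98. Mouse m35 had the highest value of all 8 mice, and the log2 fold change was −0.36 (SE 0.31, adjusted p = 0.47). *Rpl10*, one of the last proteins to join the large subunit, had 105.8, 125.1, 146 and 180.2 FPKM at PN21 and 152, 79.3, 99.2 and 84.4 FPKM at PN98 (log2 fold change −0.44, SE 0.26, adjusted p = 0.28). Without m35, the values were −0.63 (adjusted p = 0.082) for *Rpl30* and −0.64 (adjusted p = 0.067) for *Rpl10*.

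The stalk recruits the translation factors that hydrolyse GTP. Its anchor *Rplp0*, often taken as a reference gene in quantitative PCR, stood at 577, 652, 751 and 824 FPKM at PN21 and at 661, 291, 364 and 293 FPKM at PN98 (log2 fold change −0.87, SE 0.28, adjusted p = 0.10, 0.0092 without m35). The acidic protein genes *Rplp1* and *Rplp2* stood at 1089, 1238, 1215 and 2602 FPKM and at 736, 695, 693 and 1659 FPKM at PN21. At PN98 they stood at 1306, 618, 770 and 650 FPKM and at 742, 374, 543 and 484 FPKM. The log2 fold changes were −0.85 (SE 0.34, adjusted p = 0.16) and −0.75 (SE 0.34, adjusted p = 0.19). Mouse m145 stood apart in the acidic pair more than in *Rplp0*. The decimal mark of 1 *Rplp2* transcript could be read in another way, which gave a log2 fold change of −0.998 (adjusted p = 0.10).

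**Figure D3:**
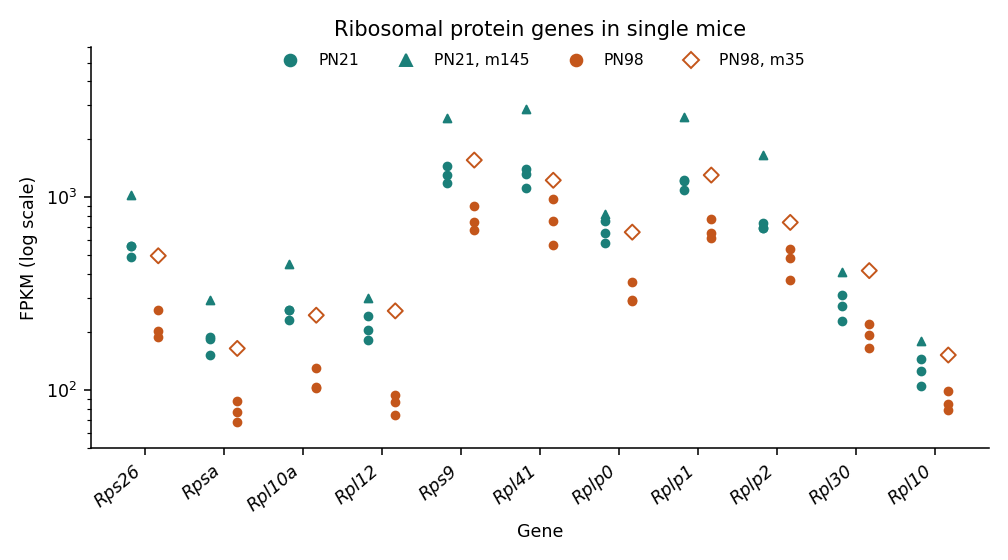
FPKM (log axis) of 11 ribosomal protein genes in single mice, PN21 in green and PN98 in orange, with a triangle for m145 and an open diamond for m35. In *Rps26* the 3 filled PN98 points sit at 189 to 260 FPKM, below the PN21 points from 490 FPKM, and m35 sits at 498 FPKM.

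Across all 76 small subunit, large subunit and stalk genes the log2 fold changes had a narrow spread, with quartiles of −0.90 and −0.70. Over the 8 mice, the correlation of a member with the mean of the other members had a median of 0.98 across the 87 tested members and was above 0.9 in 78 of them; the values share the same libraries and their scaling. The 9 members below 0.9 included 5 paralogues (*Rpl3l*, *Rpl39l*, *Rps27l*, *Rps4y2* and *Rpl7l1*) and *Rpl13a*, *Rpl18* and *Rps27*. *Rpl13a* was listed through 1 transcript at 0.00015 to 4.24 FPKM, with 0.00017, 0.00026 and 0.00015 FPKM in m138, m114 and m125, and *Rpl18* reached 2.36 to 15.01 FPKM. These 2 levels stand far below those of most other large subunit genes, and the part of read assignment in them was not tested.

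**Figure D4:**
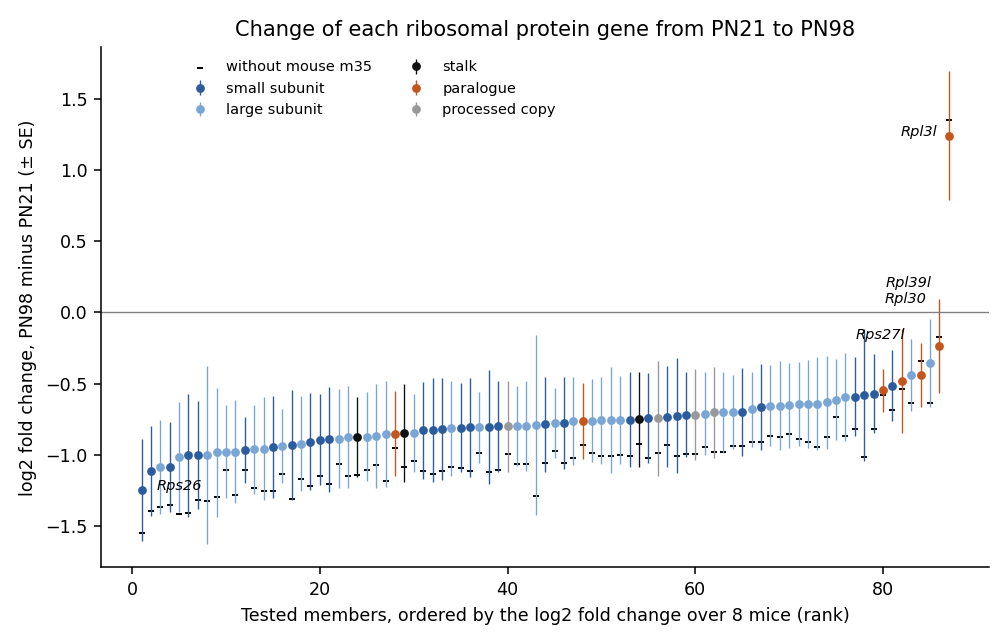
Log2 fold change (PN98 minus PN21) of the 87 tested members with its standard error over 8 mice, ordered by size and coloured by role; black dashes show the value without m35. Nearly all members lie between −1.25 and −0.24, *Rpl3l* alone lies above 0 at 1.24 (with *Rpl39l* at 0.0017 after scaling to nuclear genes, and *Rps19* and *Rpl36a* above 0 from protein-coding transcripts alone), and leaving out m35 moves the median from −0.79 to −1.02.

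Paralogues are a second set of genes whose proteins can replace a ribosomal protein in some tissues. Of the 7 tested, 6 had a lower mean at PN98, against 67.1% of all genes, and the median log2 fold change was −0.48. The ratio of each paralogue to its parent gene was compared within each library, where scaling between libraries has no part beyond the pseudocount. Ratios were compared by a two-sided exact permutation test (70 splits of the mice, smallest possible p 0.0286), with p-values adjusted over the 7 pairs. No pair passed the correction, which a single pair at the smallest p cannot pass (it gets 0.2), since at least 5 of the 7 pairs would have to reach that p.

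*Rpl3l* (chr17:24727820-24736143), which replaces *Rpl3* in striated muscle, had a higher mean at PN98 under every alternative run. The other members with a higher mean under any of them were *Rpl39l* after scaling to nuclear genes (without m35 after either scaling), and *Rps19* and *Rpl36a* with protein-coding transcripts alone. It stood at 0.521, 0.991, 1.52 and 0.831 FPKM at PN21 and at 2.63, 10.1, 4.01 and 1.16 FPKM at PN98, so the ages overlapped through m125. The gene level log2 fold change was 1.24 (SE 0.45, adjusted p = 0.13). Its parent *Rpl3* stood at 170 ± 29.9 FPKM at PN21 and 102 ± 43.9 FPKM at PN98 (SD, n = 4; log2 fold change −0.80, SE 0.28, adjusted p = 0.12). The log2 ratio of *Rpl3l* to *Rpl3* was −6.45 ± 0.33 at PN21 and −4.41 ± 1.19 at PN98 (SD, n = 4), higher at PN98 by 2.04 with no overlap between the ages (exact permutation p = 0.0286, 0.2 after adjustment). The 11 skeletal muscle markers listed, among them *Ckm* and *Myh4*, summed to 88.6 to 892 FPKM at PN21 and 642 to 4096 FPKM at PN98, and 3 of them passed as higher. Ranking the mice by the mean level of these markers and by *Rpl3l* gave the same order for all 8 mice. Muscle markers thus varied with *Rpl3l*, and their part in the ratio was not tested.

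*Rps27l*, induced by p53 and a close copy of *Rps27*, stood at 291, 446, 290 and 456 FPKM at PN21 and at 216, 246, 297 and 320 FPKM at PN98. *Rps27* stood at 353, 595, 718 and 930 FPKM at PN21 and at 1015, 289, 323 and 295 FPKM at PN98. Mouse m35 thus had the lowest *Rps27l* and the highest *Rps27* of all 8 mice, and its log2 ratio of −2.23 lay below the range of −1.31 to 0.12 in the other 7 mice. Between the ages the ratio differed by 0.14 (exact permutation p = 0.80, 0.93 after adjustment), and without m35 by 0.68. The log2 fold changes were −0.44 (SE 0.22, adjusted p = 0.23) for *Rps27l* and −0.58 (SE 0.46, adjusted p = 0.43) for *Rps27*.

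*Rpl7l1*, a nucleolar relative of *Rpl7* in large subunit assembly, stood at 27.4, 29.99, 23.3 and 29.04 FPKM at PN21 and at 19.7, 18.8, 19.9 and 15.6 FPKM at PN98. The ages did not overlap, and m35 lay with the other PN98 mice (log2 fold change −0.55, SE 0.15, adjusted p = 0.077). *Rpl36al*, an autosomal copy of the X-linked *Rpl36a*, also had no overlap, with 217 to 532 FPKM at PN21 and 133 to 211 FPKM at PN98 (log2 fold change −0.85, SE 0.30, adjusted p = 0.12). *Rpl36a* had a log2 fold change of −0.88 (SE 0.36, adjusted p = 0.16), and the ratio of the pair differed by 0.02 between the ages. *Rpl22l1*, the paralogue of *Rpl22*, stood at 128 ± 38.8 FPKM at PN21 and 74.8 ± 20.7 FPKM at PN98 (SD, n = 4), and its ratio to *Rpl22* differed by −0.13. *Rpl39l*, known from male germ cells, lay between 5.88 and 13.9 FPKM at PN21 and between 6.01 and 14.05 FPKM at PN98. Its log2 fold change was −0.24 (SE 0.33, adjusted p = 0.66), and 0.0017 after scaling to nuclear genes. *Rps4y2*, which vM21 names *Rps4l* and annotates as a processed pseudogene, lay between 27.2 and 79.2 FPKM at PN21 and between 24.2 and 56.5 FPKM at PN98. The ratios of *Rpl7l1*, *Rpl39l* and *Rps4y2* to *Rpl7*, *Rpl39* and *Rps4x* differed by 0.16, 0.52 and 0.34, and the exact permutation p of these and the *Rpl22l1* and *Rpl36al* pairs lay between 0.26 and 0.94 before adjustment.

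**Figure D5:**
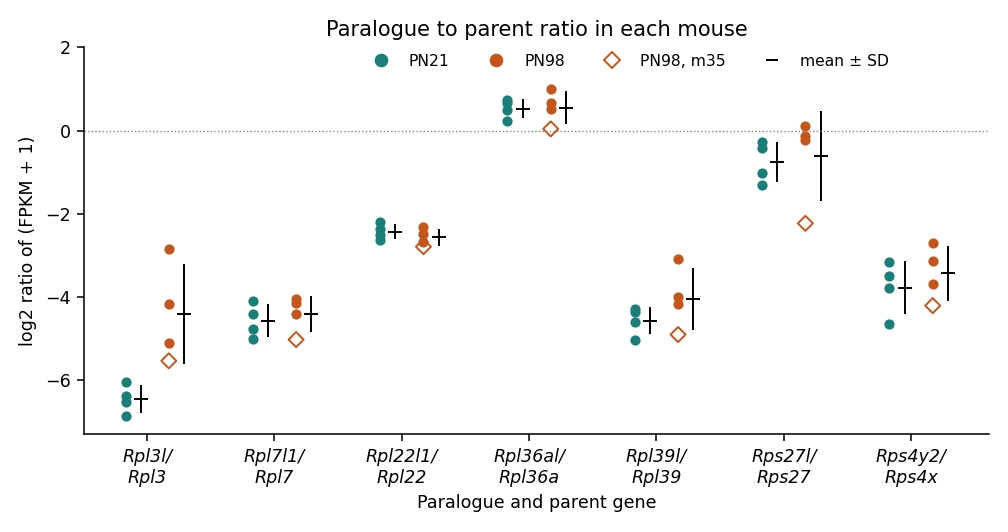
Log2 ratio of FPKM + 1 between each paralogue and its parent gene in single mice, PN21 in green and PN98 in orange, with mean ± SD in black and an open diamond for m35. The ages are apart in *Rpl3l*/*Rpl3* alone, and m35 lies lowest in *Rps27l*/*Rps27* at −2.23.

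Copies bear on how far a value belongs to its gene. The file lists 216 genes named as pseudogene copies of 53 members, whose summed FPKM was 0.697 to 0.797 times that of the members in each mouse, and in 29 members the copies had a higher mean than the gene. *Rps3a1* and its copy *Rps3a2* had nearly the same values, for example 290 and 280 FPKM in m1, so that their reads may be shared. With the copies added to each member, 0 members were called, 52 were lower and 1 higher with an unadjusted p under 0.05, and the median was −0.77. For 25 of the 87 members, less than 50% of the FPKM came from protein-coding transcripts, and with these transcripts alone 79 of 82 testable members had a lower mean, 1 of them (*Rpl12*) called, against 8.82% of all genes. The 3 others were *Rpl3l*, *Rpl36a* at 0.20 (SE 0.48) and *Rps19* at 0.0086 (SE 0.29). Protein-coding transcripts held only 1.16% of the FPKM of *Rpl12*, 3.13% of that of *Rpl36a* and 11.3% of that of *Rps19*, so these results rest on a small part of each gene's level. Values of single genes are therefore uncertain where copies or non-coding transcripts took part of the reads.

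At the level of single transcripts, with the filter of the study (no 0 in any mouse and a mean above 2 FPKM at either age), 224 transcripts of 87 members were tested. Of these, 207 had a lower mean at PN98, the median log2 fold change was −0.81 against −0.24 for all 22764 transcripts, and 0 passed an adjusted p of 0.05 (1.42% of all transcripts passed). An unadjusted p under 0.05 was found for 78 lower and 2 higher member transcripts, against 14.8% lower of all transcripts. The 124 protein-coding transcripts had a median of −0.76 and the 60 with a retained intron a median of −0.97. Without m35, 39 member transcripts were called, against 6.28% lower of all transcripts.

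The excess in m145 was larger for short mRNAs. Among the 82 members with a protein-coding transcript, the 41 shorter ones stood at a median of 0.88 on the log2 scale above the mean of the other PN21 mice and the 41 longer ones at 0.66. The correlation of this difference with log2 transcript length was −0.34 across these members and −0.35 across 12258 genes tested with a length, as a description across genes that share the libraries. The log2 fold change of the members between the ages had a correlation of 0.06 with log2 length.

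The genes that make and regulate ribosomes were counted from lists drawn up by function. Of 33 tested nucleolar assembly genes, 31 had a lower mean at PN98, against 67.1% of all genes. The median log2 fold change was −0.59, and −0.35 with 30 lower after scaling to nuclear genes. By limma over 8 mice 6 fell and 1 rose, against 3.10% and 2.44% of all genes. The 6 were *Fbl* and *Nop58* of the particles that methylate rRNA, *Nhp2* of those that form pseudouridine, the nucleolar chaperone *Nolc1*, *Bysl* of small subunit maturation and the rRNA methyltransferase *Nop2*. *Fbl* stood at 32.7, 29.8, 32.8 and 37.2 FPKM at PN21 and at 19.6, 10.8, 12.6 and 9.01 FPKM at PN98 (log2 fold change −1.34, SE 0.23, adjusted p = 0.019). *Nop2* stood at 16.5 ± 0.742 FPKM at PN21 and 8.68 ± 1.22 FPKM at PN98 (SD, n = 4; log2 fold change −0.86, SE 0.14, adjusted p = 0.017). In both, m35 lay below every PN21 mouse. The adjusted p of *Nop58*, *Nolc1*, *Nhp2* and *Bysl* lay between 0.035 and 0.046, and after scaling to nuclear genes only *Fbl* and *Nop58* of the 6 remained called. Without m35, 18 of the 33 assembly genes were called lower, against 18.4% of all genes, and without any other single mouse 0 to 2, in fits that called 1.38% to 3.90% of all genes.

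*Sbds*, which acts in the last steps of large subunit maturation, rose from 39.7, 36.7, 40.4 and 39.9 FPKM at PN21 to 72.5, 69.1, 63.7 and 67.6 FPKM at PN98 (log2 fold change 0.78, SE 0.13, adjusted p = 0.015). Its PN98 values, m35 included, lay close together and above all PN21 values, and without m1, m49 or m106 its adjusted p was 0.051, 0.051 or 0.062. In 17 of the 33 assembly genes all PN98 mice lay below all PN21 mice, against 10.1% of all genes and 7 of the 87 ribosomal protein genes. In the assembly list, the mean level of m35 (4.29) lay below the lowest PN21 mouse (4.53), whereas in the members it lay within the PN21 range.

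The other mRNAs known to carry a TOP tract, such as those of elongation factors, comprised 16 tested genes. Of these, 15 had a lower mean at PN98, against 67.1% of all genes, and 12 after either scaling, given without a share of all genes. The median log2 fold change was −0.49, and −0.23 and −0.26 after nuclear and median of ratios scaling. Without these scalings 1 of the 16 fell, against 3.10% of all genes. This was the nucleolar chaperone *Npm1*, with 215, 236, 250 and 299 FPKM at PN21 and 187, 124.7, 88.9 and 100.4 FPKM at PN98 (log2 fold change −1.04, SE 0.25, adjusted p = 0.049). The lowest and highest of the list were *Hnrnpa1*, an RNA-binding protein, at −1.30 (SE 0.34, adjusted p = 0.061) and the histone chaperone *Nap1l1* at 0.65 (SE 0.30, adjusted p = 0.19). Without m35, 8 of the 16 were called lower, against 18.4% of all genes, and without any other single mouse 0. *Fau*, which encodes a ribosomal protein fused to a ubiquitin-like protein, had a log2 fold change of −0.85 (SE 0.75, adjusted p = 0.47).

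Of 13 genes for RNA polymerase I and its factors, which transcribe the large rRNA precursor, 12 had a lower mean at PN98, against 67.1% of all genes. The median log2 fold change was −0.37. After scaling to nuclear genes 7 had a lower mean, given without a share of all genes, and the median was −0.12. By limma 0 passed, against 5.55% of all genes, and 5 were lower with an unadjusted p under 0.05, against 19.4%. The log2 fold changes of the 13 genes ranged from −0.94 (SE 0.30, adjusted p = 0.10) in *Taf1d* to 0.21 (SE 0.45, adjusted p = 0.79) in *Taf1c*, both subunits of the initiation factor of RNA polymerase I. Of 10 regulators of TOP mRNAs and ribosome synthesis, 4 had a lower and 6 a higher mean (1 and 9 after scaling to nuclear genes), and 0 passed by limma, 2 with an unadjusted p under 0.05. *Myc*, a transcription factor that drives ribosome synthesis, stood at 22.8, 18.7, 27.0 and 20.1 FPKM at PN21 and at 16.96, 5.94, 7.15 and 4.47 FPKM at PN98 (log2 fold change −1.41, SE 0.35, adjusted p = 0.056, 0.034 after median of ratios scaling). *Larp1*, which binds the TOP tract, was listed at 0 in m49 and at 18.3 to 29.4 FPKM in the other mice (log2 fold change 0.93, SE 1.03, adjusted p = 0.56).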

How the data were processed

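Values were FPKM per Ensembl transcript and mouse as deposited by the authors, who per the labels and the study's methods used CASAVA 1.8.2, FastQC, STAR 2.3.0 on mm10 and Cufflinks 2.1.1 with a Gencode annotation on paired-end poly(A)+ libraries. The deposited table also holds an average, a standard deviation and a log10 score per transcript over these and 2 unlisted values. In 40380 of 91969 transcripts, 300 of the 345 of members among them, a decimal mark had been lost from the deposited FPKM. Marks were restored so that these pooled values were met; 28 transcripts were left out, and all 4986 unambiguous readings that another deposited table lists intact were equal to it. The authors' fold changes and p-values in that table were not used. Transcripts were assigned to genes by GENCODE vM21 (GRCm38) and summed.

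Genes with a mean of at least 1 FPKM were compared on log2(FPKM + 1), which understates changes of low genes, with limma 3.58.1 in R 4.3.3, with Benjamini-Hochberg adjustment over all genes; the script was tested on simulated data. The pseudocount was 1 and the threshold an adjusted p of 0.05. Promoter windows were from RefSeq (GRCm38.p6). Genes named were members with an adjusted p under 0.05 (there were 0 by limma, against 55 with an unadjusted p under 0.05), the 5 lowest and 5 highest log2 fold changes, the 5 most abundant, members higher at PN98, stalk genes, *Rpsa*, paralogue pairs, and called or extreme partner genes; some genes are not reported here. Members and lists were chosen with earlier results of these data known. Alternatives were another pseudocount, filter, scaling, transcript choice, weighting and leaving out each mouse.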

Additional observations from a re-analysis of the deposited data

Results flagged for a closer look

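Among the values reported above, 1 mouse of an age stood far from the other 3 by Dixon's ratio (gap to the nearest value over the range, against its critical value for 4 samples) in 19 cases; chance gives about 5% of groups. At PN21, m145 was the high value in *Rps26* (0.866), *Rpl10a* (0.863), *Rpl41* (0.834), *Rplp1* (0.902), *Rps15* (0.917), *Rplp2* (0.955) and the mean of the stalk genes (0.847). At PN98, m35 was the high value in *Rpl12* (0.890), *Rpl3* (0.833), *Rpl7* (0.888), *Rpl22* (0.970), *Rpl36a* (0.952), *Rpl39* (0.881) and *Rps27* (0.953), and the low value in the ratio of *Rps27l* to *Rps27* (0.852). Over all tested members, m145 stood apart in this way in 25 and m35 in 27, so that these flags repeat the joint shift of the members in these mice. Over all tested genes, the mean log2(FPKM + 1) of m145 (3.75) lay among the other PN21 mice (3.72 to 3.85). The other flagged values were *Rpl39l* (0.919) and *Fau* (0.833), both high in m114, *Larp1*, listed at 0 in m49 (0.868), and the RNA polymerase I list, high in m138 (0.917).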

How the results depend on the processing

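No paired analysis was possible because each library is 1 mouse killed at PN21 or at PN98, so no mouse was measured at both ages. The median log2 fold change of the members, the member score (a difference of −0.76 between the ages) and the share of nuclear FPKM kept their direction and moved by less than 1 SD between mice in all alternatives run. Leaving out 1 mouse at a time, they ranged from −1.02 to −0.59, −1.002 to −0.57 and −1.59 to −0.75 percentage points. Over the same alternatives the number of called members ranged from 0 to 62, of members lower with an unadjusted p under 0.05 from 13 to 82, of members without overlap from 7 to 81, of called member transcripts from 0 to 39 and of member transcripts lower with an unadjusted p from 35 to 148; the highest of each was without m35. The counts of partner genes called lower ranged from 0 to 8 for TOP mRNAs, 0 to 18 for assembly, 0 to 3 for RNA polymerase I and 0 to 1 for regulators. The cause of these changes was not tested.

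Called members numbered 74 with arrayWeights, 1 without the filter (*Rpl7l1*), 1 with the highest transcript alone (*Rpl27*) and 1 with protein-coding transcripts alone (*Rpl12*). Without m35 they numbered 15 with median of ratios and 22 with nuclear scaling, against 9.89% and 7.34% of all genes. Members without overlap were then 55 and 75. These overlap counts, and the calls without the filter or with the highest transcript alone, are given without a share of all genes. How far they are particular to the members is thus not shown. With median of ratios and nuclear scaling, members lower with an unadjusted p numbered 23 and 24, and member transcripts 39 and 38. Member transcripts called lower numbered 1 with median of ratios scaling and 1 with zeros kept, the same *Rpl10a* transcript. Without m138, 1 member transcript was called higher and 0 lower. These transcript counts are given without a share of all transcripts. TOP mRNAs called lower numbered 0 with a pseudocount of 0.1, 2 with median of ratios and 0 with nuclear scaling, and without m35 5 and 4. Assembly genes numbered 2 with nuclear scaling. Regulators numbered 1 with median of ratios scaling, and 1 without m35 with either scaling, where RNA polymerase I genes numbered 1 with median of ratios. Protein-coding transcripts, added copies and paired choices were chosen after seeing the data. Over all genes, 490 were called lower and 386 higher, and 284 and 569 with nuclear scaling.

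Ratios to the parent changed sign for *Rpl22l1* with the highest transcript alone (0.044), for *Rpl36al* on leaving out a mouse (−0.12 to 0.19) and for *Rps27l* on leaving out a mouse (−0.10 to 0.68); none was past the threshold. The ratios of *Rpl3l*, *Rpl7l1*, *Rpl22l1*, *Rpl39l* and *Rps4y2* ranged over the same alternatives from 1.52 to 2.41, 0.02 to 0.37, −0.22 to −0.06, 0.21 to 0.81 and 0.05 to 0.60. Single genes that changed sign were *Rpl39l* with nuclear scaling (0.0017), and, without m49, *Taf1c* (−0.11, in a range up to 0.46) and *Larp1* (−0.27, in a range up to 1.37). Unknown depth limits all values, those of *Rpl13a*, *Rpl3l* and *Taf1c* most.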
